A study of Mus musculus with 10 samples.

Results

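The 7 genes described here are Cdkn2a and Cdkn2b, which form the Ink4a locus of the mouse, their neighbour Mtap, and Rb1, Cdk4, Cdk6 and Ccnd1, on whose products the inhibitors of the locus act. They were taken by symbol from a table of 48516 genes, in which each symbol occurred once. The table holds RNA sequencing of 10 libraries. Cells of Ink4a.1, a line of mouse pancreatic cancer, had been placed in the pancreas of mice of the model Ink4.1syn_Luc, and metastases in the liver were brought into culture (strain FVB). The libraries were 5 labelled liver metastasis, with the line names Met25, Met35, Met36, Met38 and Met72, and 5 labelled primary tumour, with the line name Ink4a and the same numbers. Every sample is labelled as an untreated culture at 90% confluence, although transcripts of other tissues were high in single libraries, such as 5163 FPKM of the insulin gene Ins2 in primary 25. The design text names metastases of 4 mice and the parental line, whereas 5 numbers are labelled in each group. The labels give no allele of any gene beyond the name Ink4a and do not say that the primary samples were separate cultures or animals. The p-values therefore measure the spread among these samples only, which can be technical.

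Cdkn2a encodes a pair of unrelated tumour suppressor proteins from alternative first exons. The inhibitor p16INK4A, like p15INK4B from Cdkn2b, binds the kinases CDK4 and CDK6 and keeps them from their partner cyclin D1, the product of Ccnd1. The kinases otherwise phosphorylate the retinoblastoma protein, encoded by Rb1, which then releases E2F transcription factors and lets the cell enter S phase. The other product of Cdkn2a, ARF, binds the ubiquitin ligase MDM2 and so stabilises p53. Mtap encodes methylthioadenosine phosphorylase, an enzyme of methionine salvage, and is often lost together with the human CDKN2A gene in pancreatic cancer.

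The libraries did not divide by group. Numbers 25, 38 and 72 (6 libraries) exceeded numbers 35 and 36 (4 libraries) without overlap in 13 of 15 leukocyte markers. The markers summed to 923.5 to 5113 FPKM (a fragment count scaled by transcript length and library size) in the 6 and to 2.14 to 3.17 FPKM in the 4, where 5 of the 15 were listed at 0. The 12 markers that reached 1 FPKM in at least 5 libraries were all higher in the 6 without overlap, against 19.9% of all 13152 such genes. This count is no support for the division, because the sets of numbers were themselves drawn by leukocyte transcripts in earlier results of these data. Of the 15 markers, 13 were also under 1 FPKM in all 4 libraries, so those among them that passed did so through the 6 alone. The estimated depth was 15.7 M to 30.4 M fragments (M, mega) per library and lowest in metastasis 25. Some zeros may be estimates that failed, as 21 values were 0 for genes with at least 1 FPKM in each of the other 9 libraries. Of these, 11 were in metastasis 25 and 2 in the 4 libraries of numbers 35 and 36.

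Cdkn2a and Cdkn2b were listed at 0 in both metastasis lines and both primary samples of numbers 35 and 36, while their neighbour Mtap was abundant there. In the libraries of numbers 25, 38 and 72 the pair was present at low levels, highest in metastasis 72. Neither gene separated metastasis from primary.

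The gene-level value of Cdkn2a (ENSMUSG00000044303.6, chromosome 4, 89274471 to 89294653, GRCm38, minus strand) adds up 2 transcripts whose starts lie 12.5 kb apart and which share 575 bases, so p16INK4A and ARF transcripts cannot be told apart in it. The sequences around both starts, and around the start of Cdkn2b (ENSMUSG00000073802.4, chromosome 4, 89306289 to 89311032, minus strand), are shown because they are the separate points from which the low signal could arise. They are RefSeq windows of GRCm38.p6, from 250 bases before to 50 bases after each start, and capitals mark the GC box GGGCGG on the printed strand or its complement.
ARF start of Cdkn2a, chr4:89294570-89294869, minus strand: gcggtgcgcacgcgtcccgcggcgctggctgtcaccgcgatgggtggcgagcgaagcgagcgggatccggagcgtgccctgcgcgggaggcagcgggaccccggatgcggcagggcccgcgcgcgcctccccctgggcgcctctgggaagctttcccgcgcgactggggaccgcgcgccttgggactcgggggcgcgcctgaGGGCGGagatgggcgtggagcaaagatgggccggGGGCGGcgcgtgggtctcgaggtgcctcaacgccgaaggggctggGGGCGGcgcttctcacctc
p16INK4A start of Cdkn2a, chr4:89282143-89282442, minus strand: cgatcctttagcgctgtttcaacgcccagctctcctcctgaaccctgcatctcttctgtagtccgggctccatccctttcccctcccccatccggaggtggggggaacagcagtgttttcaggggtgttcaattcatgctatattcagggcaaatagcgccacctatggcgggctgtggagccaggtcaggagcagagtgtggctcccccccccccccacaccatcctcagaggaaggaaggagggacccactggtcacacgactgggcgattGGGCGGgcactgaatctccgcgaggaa
Cdkn2b start, chr4:89310983-89311282, minus strand: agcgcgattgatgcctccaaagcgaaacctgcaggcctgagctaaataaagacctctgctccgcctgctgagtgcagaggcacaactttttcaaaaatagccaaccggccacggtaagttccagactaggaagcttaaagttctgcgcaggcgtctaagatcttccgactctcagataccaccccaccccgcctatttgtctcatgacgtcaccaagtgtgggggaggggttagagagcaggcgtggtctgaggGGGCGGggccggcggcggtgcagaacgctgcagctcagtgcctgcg
The window of the ARF start held 3 GC boxes and was 77.0% G and C, against 1 box and 60.3% at the p16INK4A start and 1 box and 57.7% at the Cdkn2b start. A GC box was found in 35.6% of 32817 RefSeq windows of this length. A match of these letters is a description of the window and not of a bound site.

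Cdkn2a was 0, 0, 0, 0.471 and 3.35 FPKM in metastasis 25, 35, 36, 38 and 72, and 1.29, 0, 0, 0.928 and 0.101 FPKM in primary 25, 35, 36, 38 and 72. It was therefore above 0 in 5 libraries, and the groups overlapped. Cdkn2b was 0.248, 0, 0, 2.59 and 4.87 FPKM in metastasis 25, 35, 36, 38 and 72, and 1.75, 0, 0, 2.19 and 0.685 FPKM in primary 25, 35, 36, 38 and 72. It was above 0 in all 6 libraries of numbers 25, 38 and 72 and in none of the other 4. Both genes are among the 57.0% of the table above 0 in at least 1 library. That pattern, 0 in the 4 and above 0 in the 6, was shared by 666 genes of the table (1.37%), and 0 in the 4 with at least 5 of the 6 above 0, as for Cdkn2a, by 1227 genes (2.53%). Both shares describe the libraries, since this division was seen in the data.

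Both genes were under the expression minimum of 1 FPKM in at least 5 libraries, which 5 of the 7 genes passed, and were compared between groups by exact permutation of the 10 values of log2(FPKM + 1). The mean difference, metastasis minus primary, was 0.08 for Cdkn2a (two-sided exact p = 1.0) and 0.17 for Cdkn2b (two-sided exact p = 0.81). With 5 against 5 the smallest p possible is 0.0079. The difference of Cdkn2a turned to -0.32 without metastasis 72 and that of Cdkn2b to -0.24. Cdkn2a was higher in metastasis in pair 72, lower in pairs 25 and 38 and at 0 throughout pairs 35 and 36.

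Transcripts of other cell types also differed among these libraries, only partly in the order of Cdkn2b. The 4 libraries with the most Cdkn2b, metastasis 72 and 38 and primary 38 and 25, were also the 4 with the highest leukocyte marker sums. These sums lay between 2527 and 5113 FPKM, against 1038 FPKM in metastasis 25 and 923.5 FPKM in primary 72. Within these 4 the order differed. Metastasis 72 had the most Cdkn2b (4.87 FPKM) and the lowest of the sums (2527 FPKM), and metastasis 38 had 2.59 FPKM and the highest (5113 FPKM). Endothelial markers summed to between 18.8 and 79.1 FPKM in the 6 libraries and to between 3.84 and 8.31 FPKM in the 4. Their defining gene Pecam1 was at most 0.0341 FPKM in those 4, whereas Cdh5 overlapped, at 3.03 to 12.2 FPKM in the 6 and 3.32 to 7.61 FPKM in the 4. Fibroblast markers summed to between 879.7 and 2276 FPKM in the 6 libraries and between 548.6 and 726.5 FPKM in the 4. Among them Dcn was 31.4 to 403 FPKM in the 6 and 0.973 to 19.3 FPKM in the 4, while Col1a1 was 32.4 to 571.6 FPKM in the 6 and 148.5 to 170.4 FPKM in the 4. Within the 6, the endothelial sum was lowest in primary 38, where Cdkn2b was 2.19 FPKM. Hepatocyte and erythroid marker sums were highest in metastasis 25 (32320 and 29110 FPKM), where Cdkn2b was lowest of the 6. Of the epithelial markers, Epcam was 0.857 to 15.2 FPKM in the 6 and at most 0.061 FPKM in the 4, while Krt8 overlapped. Of all genes tested, 19.9% lay above as Epcam did. The part of these cells in the level of Cdkn2a and Cdkn2b was not tested. In such bulk samples fewer cells of a type and less RNA per cell cannot be told apart.

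**Figure D1:**
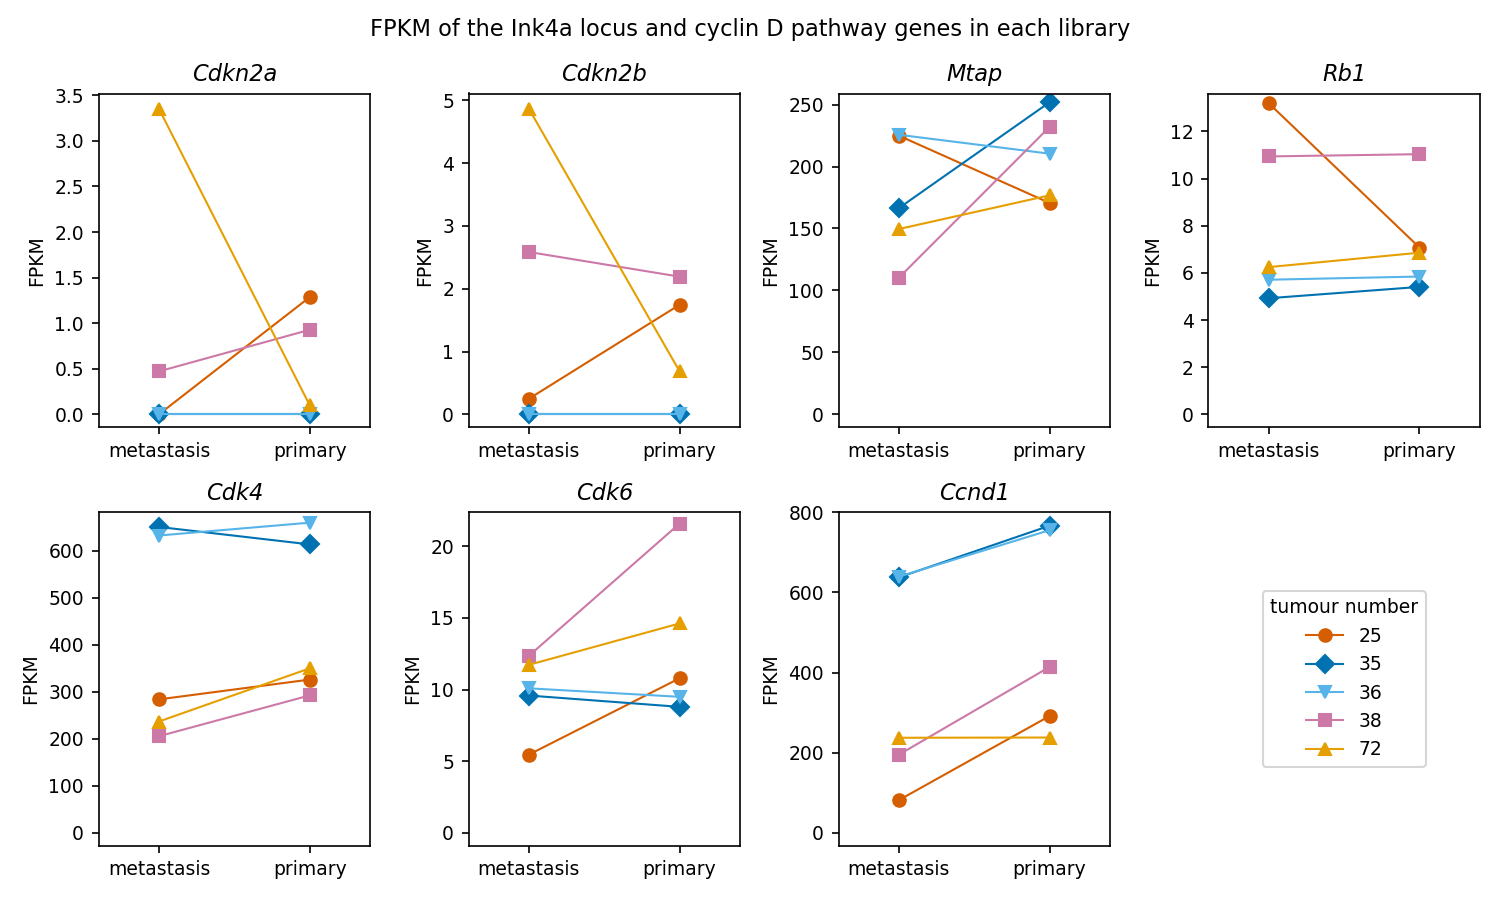
FPKM of each of the 7 genes (vertical axes, linear) in the metastasis and primary libraries, with 1 symbol per tumour number and a line joining the libraries of a number. Cdkn2a and Cdkn2b lie at 0 in all 4 libraries of numbers 35 and 36, where Cdk4 (614 to 660.2 FPKM) and Ccnd1 (638 to 767 FPKM) lie above every other library.

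Mtap (ENSMUSG00000062937.7, chromosome 4, 89137122 to 89181081, plus strand) ends 93.4 kb before the Cdkn2a model begins. It was 225, 166, 226, 110.2 and 149.5 FPKM in metastasis 25, 35, 36, 38 and 72, and 171, 251.9, 210.4, 232 and 177 FPKM in primary 25, 35, 36, 38 and 72. It was thus abundant in every library, within a 2.29-fold range, and lowest in metastasis 38. In that library skeletal muscle markers summed to 6483 FPKM, the highest of the 10, and epithelial markers to 87.4 FPKM, the lowest, and their part in the level of Mtap was not tested. Both the groups and the 2 sets of numbers overlapped. Its mean was 175 ± 49.9 FPKM in metastasis, against 208 ± 34.9 FPKM in primary (SD, n = 5 each), a log2 difference of -0.28 (SE 0.23, limma adjusted p = 0.9998).

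The extent of the zeros around the locus could be read only coarsely, because few flanking genes were expressed. In the 4 libraries of numbers 35 and 36, the nearest gene with a value above 0 in each of them was Gm12606, which ends 1.07 kb before the Cdkn2a locus, at between 0.09 and 0.41 FPKM. On the other side it was Gm12608, 127.2 kb beyond Cdkn2a, at between 0.13 and 0.36 FPKM. The table lists 3 genes between these models, Cdkn2a, Cdkn2b and Gm12609, and none of them was above 0 in the 4 libraries. Both flanking models were themselves close to 0 there. Gm12606 was higher in every library of numbers 25, 38 and 72, at 0.568 to 9.56 FPKM. Of all genes tested, 19.9% lay above in this way. The highest value of Gm12606 was in primary 72, where Cdkn2a was 0.101 FPKM. Gm12608 overlapped, at 0 to 0.510 FPKM in the libraries of numbers 25, 38 and 72. Gm12609, a gene model without a name, was above 0 only in primary 72, at 0.154 FPKM, so its zeros say little. Within 2000 kb of Cdkn2a the table lists 88 genes, of which 40 were above 0 in at least 1 library and 20 in at least 1 of the 4.

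Gm12603 and Gm12602 lie on the far side of Mtap. Gm12603 ranged from 1.63 to 59.9 FPKM in the 6 of numbers 25, 38 and 72, against 34.3 to 61.1 FPKM in the 4 of numbers 35 and 36. Gm12602 was between 2.03 and 11.8 FPKM in the 6 and between 9.78 and 12.4 FPKM in the 4. In metastasis 25, where Cdkn2a was also listed at 0, Gm12603 was 1.63 FPKM and Gm12602 was 2.32 FPKM. These 2 models were named after their values had been seen. Of 10 named neighbours on chromosome 4, 7 passed the expression minimum, with a median log2 difference of -0.02, against 0.0075 over all genes tested. Their mean log2(FPKM + 1) in metastasis was higher for 2 and lower for 5, and none was past the threshold. Among them Mllt3, a reader of histone acylation, had a log2 difference of 0.56 (SE 0.37), Caap1 of -0.155, Focad of -0.14, Plaa of 0.11, Hacd4 of -0.02, Klhl9 of -0.02 and Ift74 of -0.009. The ubiquitin ligase adaptor Klhl9 ranged from 9.94 to 16.5 FPKM in the 6, against 9.88 to 13.4 FPKM in the 4. Ifnb1, Dmrta1 and Elavl2 did not reach the minimum, at no more than 0.21, 0.599 and 1.50 FPKM.

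**Figure D2:**
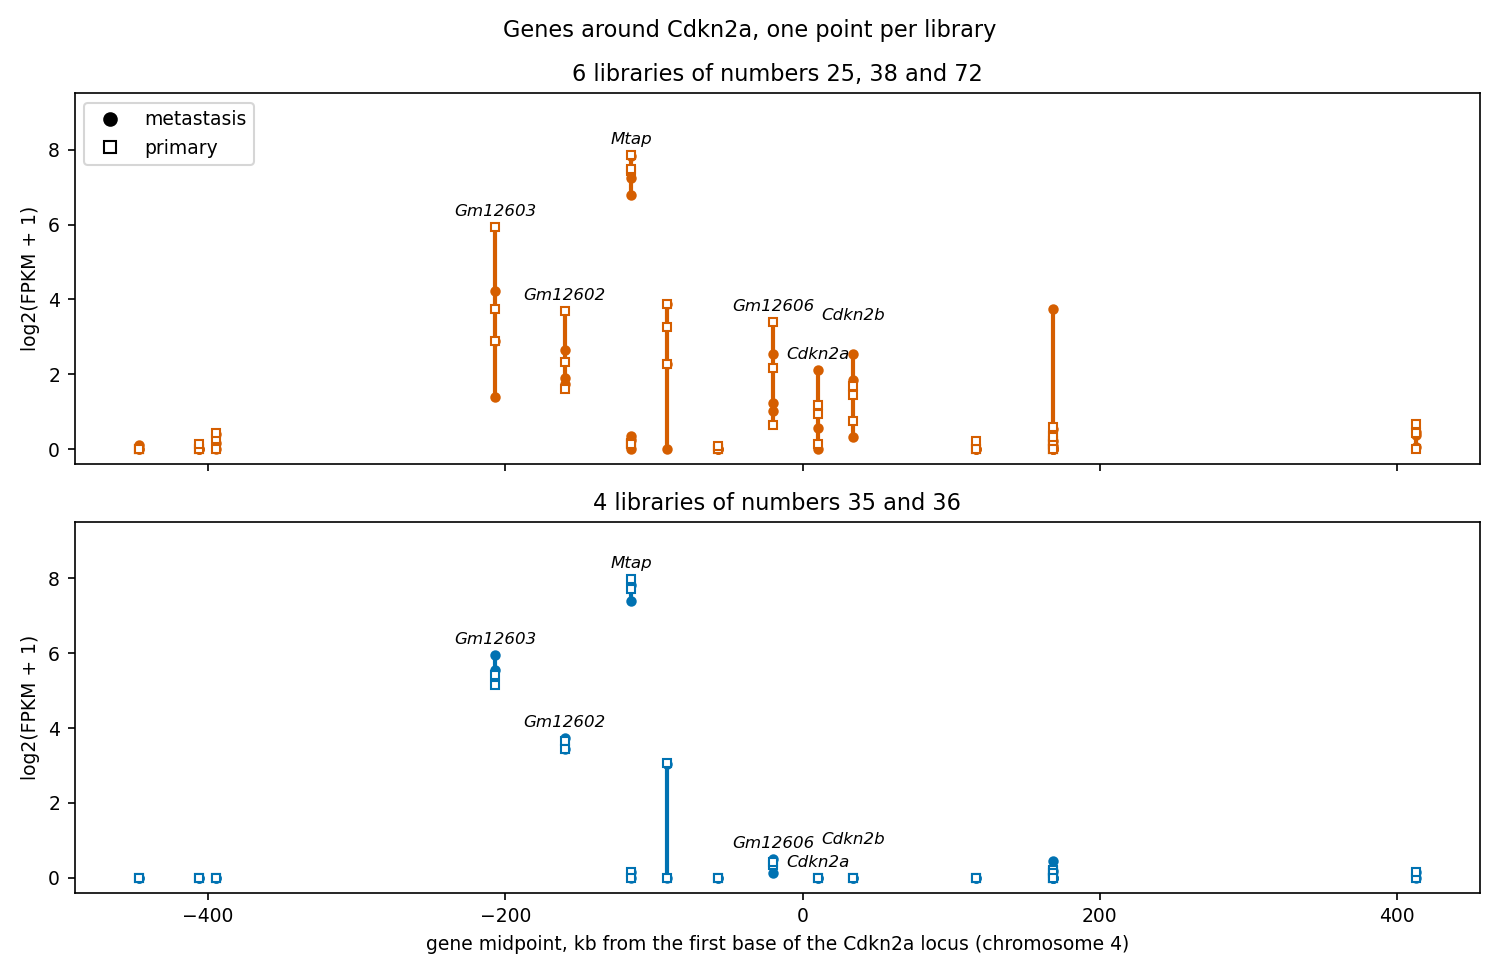
log2(FPKM + 1) of the genes around Cdkn2a that were above 0 in at least 1 library, against the distance of the gene midpoint from the first base of the Cdkn2a locus in kb, for the 6 libraries of numbers 25, 38 and 72 (upper) and the 4 of 35 and 36 (lower), with filled points for metastasis, open ones for primary and lines for the range. Mtap stands high in both panels, and Cdkn2a and Cdkn2b lie at 0 in the lower one.

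Cdk4 and Ccnd1, which encode the kinase and the cyclin that p16INK4A holds apart, were the most abundant of the 7 genes and were highest in the 4 libraries with the lowest leukocyte marker sums. Cdk4 (ENSMUSG00000006728.12, chromosome 10, 127063534 to 127067920, plus strand) was 284, 651, 633, 206 and 237 FPKM in metastasis 25, 35, 36, 38 and 72, and 326, 614, 660.2, 293 and 350.2 FPKM in primary 25, 35, 36, 38 and 72. The 6 libraries of numbers 25, 38 and 72 lay between 206 and 350.2 FPKM, all below the 4 of numbers 35 and 36, between 614 and 660.2 FPKM. The median in the 4 was 2.23 times that in the 6. Of all 13152 genes above the minimum, 24.0% lay below in the same way and 19.9% above, so the division of Cdk4 was a common one.

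Between groups Cdk4 averaged 402 ± 221 FPKM in metastasis, against 449 ± 174 FPKM in primary (SD, n = 5 each). The log2 difference was -0.25 (SE 0.40, limma adjusted p = 0.9998). It was -0.42 (SE 0.28) within numbers 25, 38 and 72, lower in all 3 pairs and with no overlap between the groups, as for 2.18% of the genes tested below and 1.95% above. Within numbers 35 and 36 it was 0.012 (SE 0.087, 95% interval -0.24 to 0.26).

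The window around the Cdk4 start is shown because it holds an unusual number of E-boxes, the motif CACGTG that Myc and related factors bind, given in capitals (RefSeq, GRCm38.p6).
Cdk4 start, chr10:127063285-127063584, plus strand: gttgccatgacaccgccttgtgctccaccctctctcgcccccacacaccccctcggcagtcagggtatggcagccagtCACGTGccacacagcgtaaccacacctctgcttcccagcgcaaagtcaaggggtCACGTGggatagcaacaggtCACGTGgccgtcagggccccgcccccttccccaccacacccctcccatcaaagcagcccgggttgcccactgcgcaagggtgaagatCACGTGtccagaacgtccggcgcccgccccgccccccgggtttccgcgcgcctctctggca
It held 4 E-boxes and 3 GC boxes. Of the 32817 windows, 7.15% held an E-box and 8 windows (0.0244%) held at least 4. The windows of Cdkn2a, Cdkn2b and Mtap held none and that of Cdk6 held 1. The motif was chosen after the sequence had been seen. An E2F word, TTTCGCGC or TTTGGCGC on either strand, was in none of the windows of Cdkn2a, Cdkn2b, Mtap, Cdk4 and Cdk6 and in 0.814% of all windows. Other forms of the E2F motif were not sought, so these windows may still hold one.

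Ccnd1 (ENSMUSG00000070348.5, chromosome 7, 144929931 to 144939925, minus strand) was 81.6, 638, 639, 195 and 237 FPKM in metastasis 25, 35, 36, 38 and 72, and 291, 767, 755, 414 and 238 FPKM in primary 25, 35, 36, 38 and 72. It was lower in metastasis in all 5 pairs, with log2 differences between -1.82 (pair 25) and -0.0038 (pair 72), as were 2.09% of all genes tested, while 2.36% were higher in all 5. The mean was 358 ± 262 FPKM in metastasis, against 493 ± 253 FPKM in primary (SD, n = 5 each). The log2 difference was -0.68 (SE 0.59, limma adjusted p = 0.9998), and a block for tumour number gave an SE of 0.29 (adjusted p = 0.9994). Without metastasis 25, the library with 9850 FPKM of the hepatocyte gene Alb and 18070 FPKM of the erythroid gene Hbb-bs, the difference was -0.25. The part of these cells in it was not tested.

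Within numbers 35 and 36, both metastasis values of Ccnd1 lay below both primary values, as for 15.8% of the genes tested. The log2 difference there was -0.25 (SE 0.079, 95% interval -0.48 to -0.024), with an unadjusted limma p of 0.038 and an adjusted p of 0.72, where 6.08% of genes had an unadjusted p under 0.05. With the tumour number as a block its 95% interval was -0.53 to 0.024. Within numbers 25, 38 and 72 it was -0.97 (SE 0.46, limma adjusted p = 0.9994). Between the sets of numbers, the 6 libraries of 25, 38 and 72 (81.6 to 414 FPKM) lay below the 4 of 35 and 36 (638 to 767 FPKM), with a median 2.94 times higher in the 4. Of all genes tested, 24.0% lay below in the same way.

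Cdk6 (ENSMUSG00000040274.11, chromosome 5, 3341485 to 3531008, plus strand), the second kinase that pairs with D cyclins, was far less abundant than Cdk4. It was 5.46, 9.58, 10.1, 12.4 and 11.7 FPKM in metastasis 25, 35, 36, 38 and 72, and 10.8, 8.79, 9.49, 21.6 and 14.6 FPKM in primary 25, 35, 36, 38 and 72. The highest value was in primary 38 and the lowest in metastasis 25, while the 4 libraries of numbers 35 and 36 lay in between, close to each other. Within numbers 35 and 36 both metastasis values lay above both primary values, as for 21.9% of the genes tested. Means were 9.84 ± 2.70 FPKM in metastasis, against 13.1 ± 5.27 FPKM in primary (SD, n = 5 each), a log2 difference of -0.35 (SE 0.30, limma adjusted p = 0.9998). Per length, Cdk4 was 13.6 to 52.1 times Cdk6 in the 6 libraries of numbers 25, 38 and 72, against 62.8 to 69.8 times in the 4 of numbers 35 and 36.

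Rb1 (ENSMUSG00000022105.6, chromosome 14, 73183673 to 73325822, minus strand) was 13.2, 4.93, 5.71, 10.9 and 6.25 FPKM in metastasis 25, 35, 36, 38 and 72, and 7.08, 5.41, 5.85, 11.04 and 6.86 FPKM in primary 25, 35, 36, 38 and 72. Rb1 thus ran opposite to Cdk4 and Ccnd1 between the sets of numbers. The 6 libraries of numbers 25, 38 and 72 (6.25 to 13.2 FPKM) lay above the 4 of 35 and 36 (4.93 to 5.85 FPKM), with a median 1.62 times higher. Of all genes tested, 19.9% lay above in this way. The mean was 8.20 ± 3.65 FPKM in metastasis, against 7.24 ± 2.23 FPKM in primary (SD, n = 5 each), a log2 difference of 0.11 (SE 0.30, limma adjusted p = 0.9998). The sign changed without metastasis 25, where the difference was -0.069, and it was -0.007 without metastasis 38.

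Several of these genes overlap others on the opposite strand, and no source used here says whether quantification used the strand. Ccnd1 shares 1100 exon bases with Oraov1 (10.4 to 15.2 FPKM over the 10 libraries), and Cdk4 shares 641 with Tspan31 (32.2 to 61.6 FPKM). Rb1 shares 488 with Rcbtb2 (16.4 to 31.6 FPKM) and 408 with Lpar6 (0.822 to 7.69 FPKM). Oraov1 and Tspan31 were lower than their partner in each library, whereas Rcbtb2 was higher than Rb1 in each. Cdkn2a and Cdkn2b transcripts shared no word of 31 bases.

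**Figure D3:**
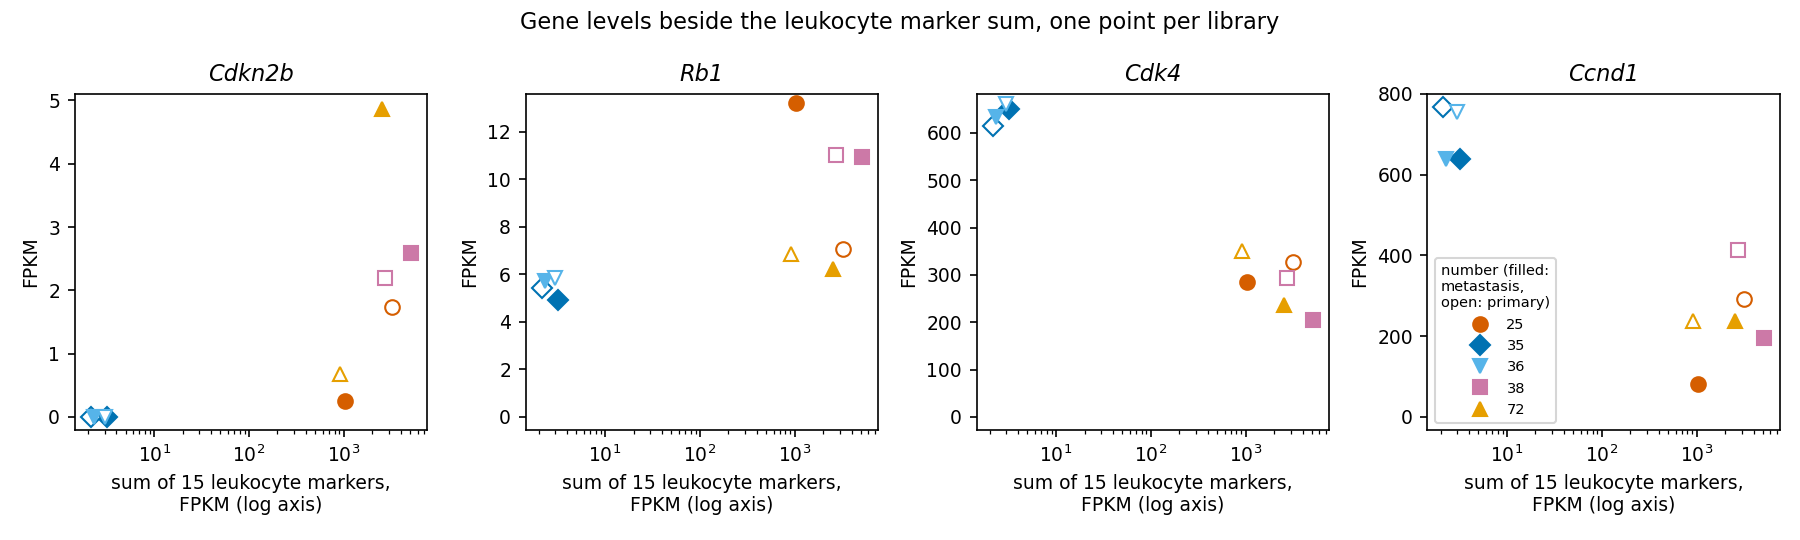
FPKM of Cdkn2b, Rb1, Cdk4 and Ccnd1 (vertical axes, linear) against the summed FPKM of 15 leukocyte markers (horizontal axis, log scale), 1 point per library, filled for metastasis and open for primary. The 4 libraries of numbers 35 and 36 stand at sums of 2.14 to 3.17 FPKM and the other 6 at 923.5 to 5113 FPKM, with Cdk4 and Ccnd1 higher and Cdkn2b at 0 in the 4.

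In the test across genes, none of the 5 genes above the expression minimum was called between metastasis and primary, and 0 of 13152 genes had a limma adjusted p under 0.05 (0.0%), with 31 genes (0.236%) at an unadjusted p under 0.05. None of the 7 genes lay in metastasis wholly above or wholly below primary, as 0.0684% and 0.0304% of the genes tested did. The count was also 0 within numbers 35 and 36 (800 genes at an unadjusted p under 0.05), within numbers 25, 38 and 72 (145 genes, 1.1%) and with the tumour number as a block (208 genes). Of the 5 genes, 4 had lower and 1 a higher mean in metastasis. A test of whether the difference itself depended on the set of numbers called 0 genes (0.0%, limma interaction term, 133 genes at an unadjusted p under 0.05). The 95% intervals of the difference reached from -1.98 to 0.62 for Ccnd1 and from -0.80 to 0.24 for Mtap. Both hold 0, and differences elsewhere within them were not excluded either. Blocked by tumour number, the interval of Ccnd1 was -1.38 to 0.009 (limma unadjusted p = 0.0524, adjusted p = 0.9994), and that of Mtap -0.83 to 0.27.

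**Figure D4:**
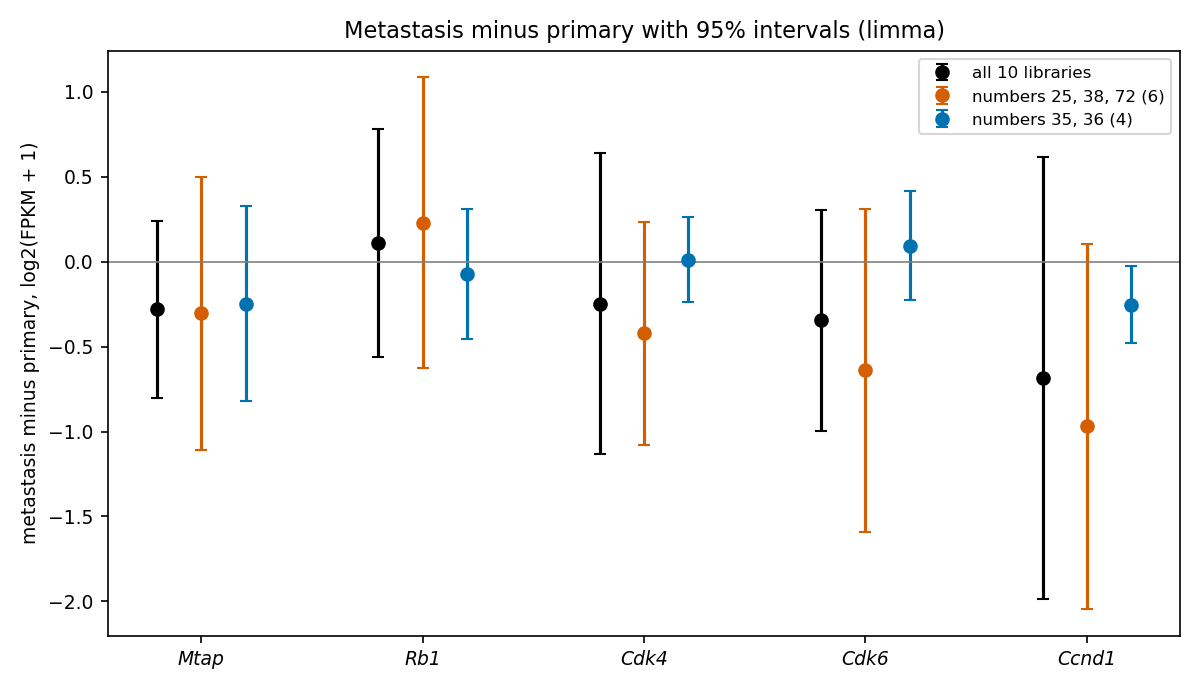
Difference in mean log2(FPKM + 1), metastasis minus primary, for the 5 genes above the expression minimum (points) with limma 95% intervals (bars), over all 10 libraries, over the 6 of numbers 25, 38 and 72 and over the 4 of numbers 35 and 36. Of the 15 intervals only that of Ccnd1 within numbers 35 and 36 leaves out 0, and its adjusted p was 0.72.

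Of 5 other inhibitors of cyclin-dependent kinases, Cdkn2c, Cdkn2d, Cdkn1a and Cdkn1b were present in the libraries of numbers 35 and 36, and Cdkn1c was near 0 there. Cdkn2c, which encodes p18INK4C, ranged from 17.4 to 62.4 FPKM at numbers 25, 38 and 72, against 40.8 to 52.2 FPKM at 35 and 36. Cdkn2d (p19INK4D) was between 36.6 and 70.3 FPKM and between 42.1 and 62.6 FPKM in the same sets. Cdkn1a (p21, a p53 target) was between 87.3 and 198 FPKM in the libraries of 25, 38 and 72, all above those of 35 and 36, between 31.7 and 81.8 FPKM. The share lying above in this way was 19.9% of all genes tested. Cdkn1c (p57), under the expression minimum, was between 0.125 and 2.88 FPKM in the 6 libraries of 25, 38 and 72 and at most 0.0232 FPKM in the 4 of 35 and 36. Of the 5, 4 passed the minimum, all with a lower mean log2(FPKM + 1) in metastasis and none called (median log2 difference -0.12). The mean FPKM of Cdkn1a was higher in metastasis, at 98.6 against 92.2 FPKM. Cdkn2d had the largest difference, -0.43 (SE 0.18), then Cdkn2c with -0.16, Cdkn1a with -0.09 and Cdkn1b (p27) with -0.07.

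Downstream of the kinases, E2F target genes all had a lower mean log2(FPKM + 1) in metastasis, and none was called. All 20 had a negative log2 difference (median -0.47, against 0.0075 over all genes tested), and 0 of the 20 were called. That median was -0.203 without metastasis 72, -0.773 without metastasis 35 and -0.723 without metastasis 36, and within numbers 35 and 36 it was -0.058. The largest were those of the replication licensing factor Cdc6 (-0.83, SE 0.51), the helicase subunit Mcm3 (-0.73, SE 0.42), the ribonucleotide reductase subunit Rrm2 (-0.71, SE 0.69) and the checkpoint kinase Chek1 (-0.66, SE 0.57). In 15 of the 20, the 6 libraries of numbers 25, 38 and 72 all lay below the 4 of 35 and 36, where the background was 24.0%. Leukocyte marker sums differed between the same sets of libraries, and their part in this division was not tested.

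Among 6 further cyclin and kinase genes of the same step, none was called (median -0.24). The mean log2(FPKM + 1) in metastasis was lower for 5 and higher for 1. Examples were the E-type cyclins Ccne2 (-0.53, SE 0.50) and Ccne1 (-0.44, SE 0.51), their kinase Cdk2 (-0.40, SE 0.27) and the D-type cyclin Ccnd3 (0.13, SE 0.25). Of 12 pocket protein, E2F and DP genes, 8 were lower and 4 higher by log2 difference, with 0 called (median -0.09). The relative of Rb1 called Rbl1 (p107) had a difference of -0.52 (SE 0.48), the E2F partner Tfdp2 of 0.46 (SE 0.57), E2f1 of -0.46 (SE 0.21) and E2f8 of -0.44 (SE 0.48). In 7 of the 12 the libraries of 25, 38 and 72 all lay below those of 35 and 36, Rbl1 and E2f8 among them, and 1 lay above, where the shares over all genes tested were 24.0% and 19.9%.

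**Figure D5:**
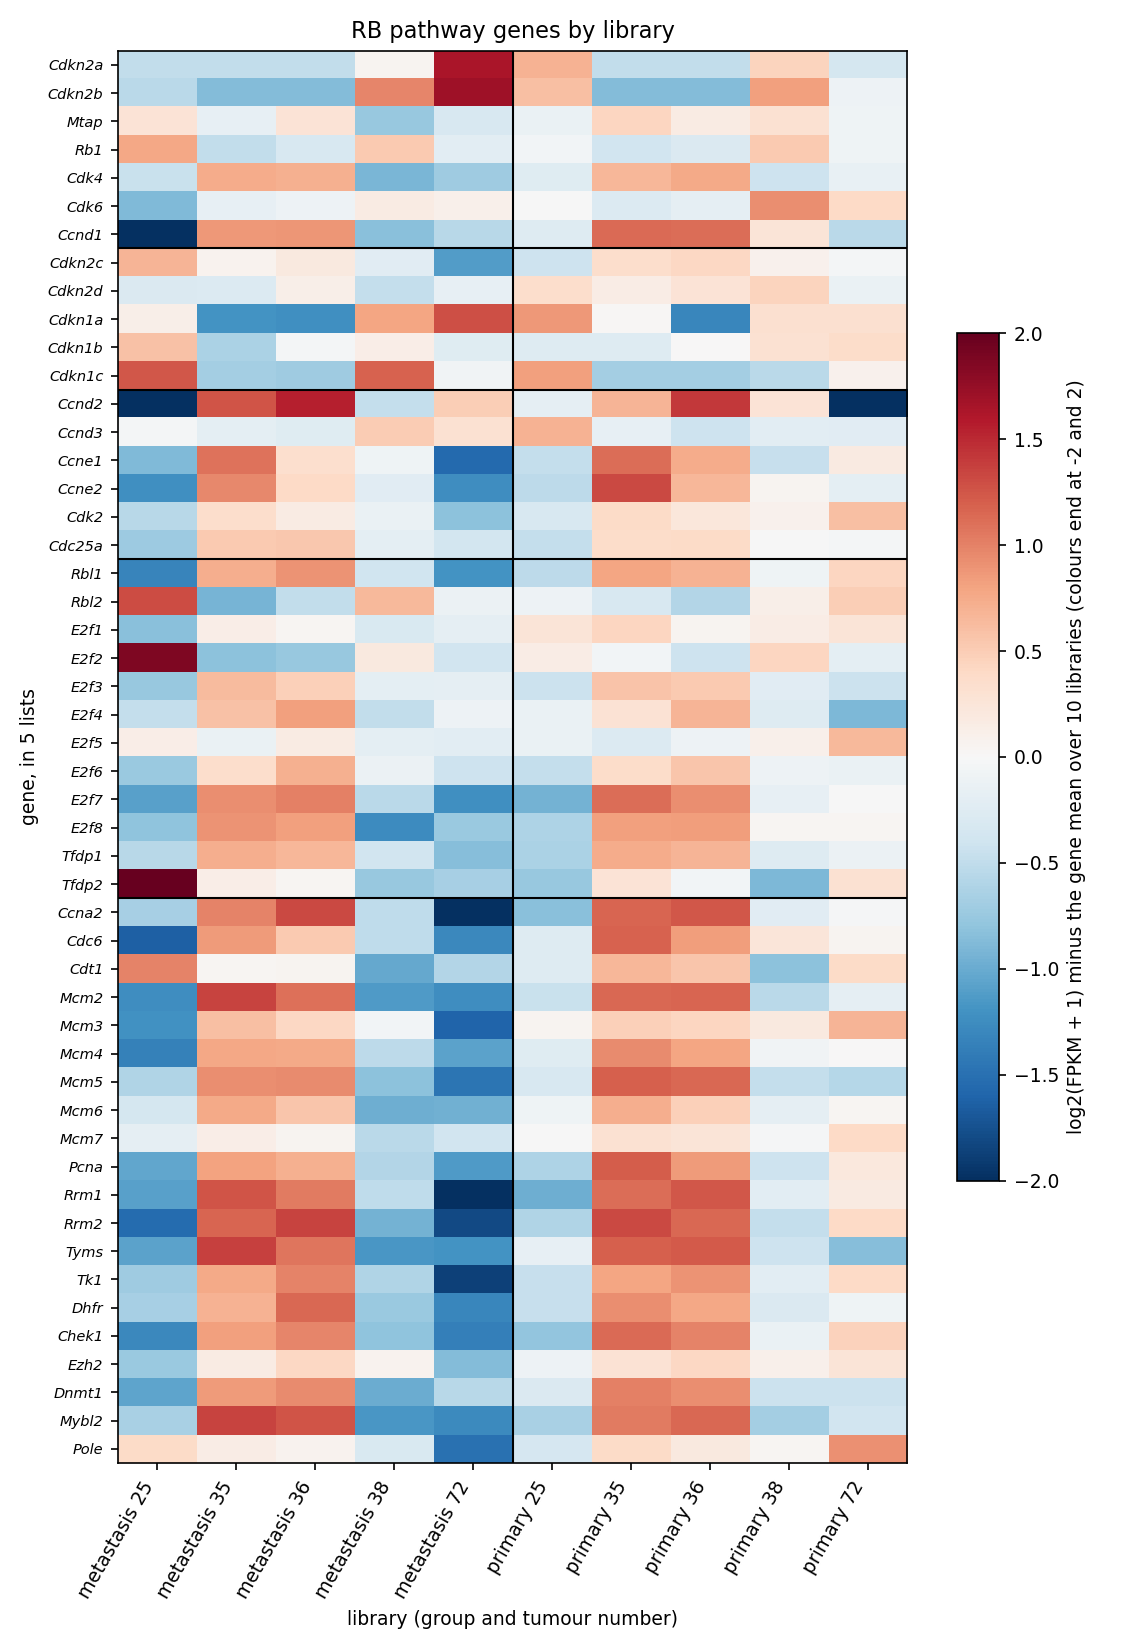
log2(FPKM + 1) minus the mean of each gene over the 10 libraries (colour, ending at -2 and 2) for the 7 genes, then other inhibitors, cyclins and kinases, pocket protein and E2F genes, and 20 E2F targets, in libraries of metastasis (left of the line) and primary (right). Most E2F targets are red in the 4 libraries of numbers 35 and 36, where Cdkn2a and Cdkn2b are at 0.

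On the ARF side, 6 of 7 genes had a lower and 1 a higher mean log2(FPKM + 1) in metastasis, with 0 called (median -0.05). The log2 difference was -0.22 (SE 0.29) for Mdm2, the target of ARF, 0.16 (SE 0.27) for Npm1, the nucleolar partner of ARF, and -0.09 for both Cdkn1a and Ccng1. Of 17 regulators of the locus, among them Polycomb genes that silence it, 16 passed the minimum. By log2 difference 10 were higher and 6 lower, with 0 called (median 0.05). The methyltransferase Ezh2 had a difference of -0.39 (SE 0.27), the demethylase Kdm2b of 0.29 (SE 0.47), and the chromobox genes Cbx8 of -0.28 (SE 0.36) and Cbx2 of -0.22 (SE 0.22). Ezh2 was between 27.1 and 60.1 FPKM in the libraries of 25, 38 and 72 and between 56.7 and 67.3 FPKM in those of 35 and 36.

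Of 13 genes around methylthioadenosine, the substrate of the Mtap enzyme, 0 were called (median -0.05). The mean log2(FPKM + 1) in metastasis was higher for 4 and lower for 9. Sat1, a polyamine acetyltransferase, had a difference of 0.44 (SE 0.57), the methionine adenosyltransferase Mat2a of -0.28 (SE 0.41), the arginine methyltransferase Prmt5 of 0.22 (SE 0.50) and the ornithine decarboxylase Odc1 of 0.16 (SE 0.46). In 9 of the 13 the 6 libraries of 25, 38 and 72 all lay below the 4 of 35 and 36 (24.0% of all genes tested), for instance Prmt5 with 8.67 to 15.7 FPKM against 34.8 to 42.3 FPKM. Sat1 lay above, as did 19.9% of all genes tested, with 130.5 to 325 FPKM against 53.4 to 61.4 FPKM.

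The genes with the most similar profiles over the 10 libraries were sought by Pearson's r of log2(FPKM + 1), as a description in which the division of the libraries weighs heavily. For Cdkn2a they were Nat6 (r = 0.963), Il11 (0.957) and Pgf (0.954), all highest in metastasis 72. For Cdkn2b they were Gpr35 (r = 0.980), Dio3 (0.977) and Vegfa (0.973), of which Gpr35 and Dio3 were also at 0 in the 4 libraries of numbers 35 and 36. Cdk4 was closest to Ranbp1 (r = 0.994), Mybl2 (0.988) and Ptbp1 (0.983), and Ccnd1 to Zfp41 (0.989), Nrp2 (0.982) and Nadk (0.981). Rb1 was closest to Scin (r = 0.940), Ccl17 (0.938) and Commd6 (0.938). Cdk6 was closest to Ggcx (r = 0.949), Ikbip (0.932) and Rufy1 (0.922), and Mtap had the weakest likeness, to Fam171a1 (0.898), Meis2 (0.891) and Ino80b (0.860).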

How the data were processed

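PolyA RNA of 10 samples, labelled as cell cultures, was sequenced, 1 library each. The authors deposited FPKM values, 1 column per library, and Salmon, edgeR and mm8 stand in the submitters' processing notes without a stated role. The program behind the FPKM and its use of strand are not stated in the sources used here. The table holds 48516 genes with an identifier and 37 lines without one, which were left out. Its loci were compared with GENCODE M21: of 40685 identifiers with the same version, 62.1% had the same GRCm38 locus when 1 was added to the start, and 99.97% had their model within it. Printed coordinates are GRCm38, counted from 1.

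Groups follow the label for cell type. The 13152 genes that reached 1 FPKM in 5 or more libraries were tested as log2(FPKM + 1) with limma 3.58.1 in R 4.3.3 (intensity trend, Benjamini-Hochberg over all genes kept, threshold 0.05). Fold changes of low genes are understated on this scale. Genes under the minimum were compared by exact permutation. Depth came from steps in 742 long single-exon genes, with each library taken as scaled to its own total.

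The genes and lists were chosen with earlier results of these data known. The labels state no pairing, so the main fit left the number out, with the pairs given as a description and the block as an alternative. Deviations from the group means correlated between same-numbered samples at 0.39 (25), 0.86 (35), 0.89 (36), 0.68 (38) and 0.23 (72), all over 0.1. Libraries of a set of numbers share the division described above, so these correlations do not show that the numbers are pairs. For metastasis 25, 35 and 72 the best match was another number (primary 72, 36 and 25). Genes named from each list were up to 4 with the largest absolute difference above the minimum, and all chromosome 4 neighbours. The nearest profiles were the 3 highest r among kept genes, passing over unnamed models. Alternatives were another pseudocount, other minimums, other scalings, the block, no trend, array weights, omission of each library and subsets of numbers. Promoter windows came from RefSeq, in which 5 of the 7 genes matched.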

Additional observations from a re-analysis of the deposited data

Results flagged for a closer look

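Cdkn2a in metastasis 72, at 3.352 FPKM, stood apart from the other 4 metastasis libraries, which lay between 0 and 0.471 FPKM. The gap to the nearest was 0.859 of the range of the group, above the critical value of Dixon's test of 0.71 for 5 samples. About 1 group in 20 is set apart in this way by chance. The endothelial markers of that library summed to 65.3 FPKM and its leukocyte markers to 2527 FPKM, and their part was not tested.

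Cdk6 moved in opposite directions in the 2 sets of numbers, lower in metastasis in all 3 pairs of 25, 38 and 72 (log2 differences -0.87, -0.76 and -0.30) and higher in both pairs of 35 and 36 (0.11 and 0.079). The interaction term, the difference in 35 and 36 minus that in 25, 38 and 72, was 0.736 (SE 0.53), with a limma adjusted p of 0.9999, so the difference was not past the threshold.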

How the results depend on the processing

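The count of genes called between metastasis and primary was 0 under each alternative, including the replicate block by tumour number, and omission of any 1 library (0 to 0). The block changed no call. Signs were less stable. Rb1 turned to -0.079 with array weights, whose estimation stopped before full convergence, and to -0.071 within numbers 35 and 36. There Cdk4 turned to 0.012 and Cdk6 to 0.095, with the same values under the block, a combination chosen after seeing the data. With a pseudocount of 0.1 the difference of Cdkn2a was -0.108. The replicate block left each value as it was (for example 0.166 for Cdkn2b, exact p = 0.75). Without 1 library at a time, the difference ranged from -0.069 to 0.255 for Rb1, from -0.316 to 0.264 for Cdkn2a and from -0.236 to 0.402 for Cdkn2b. It kept its sign for Mtap (-0.384 to -0.127), Cdk4 (-0.466 to -0.051), Cdk6 (-0.458 to -0.157) and Ccnd1 (-0.988 to -0.249). For Cdkn2a the sign changed without metastasis 72, primary 35 or primary 36, and for Cdkn2b also without metastasis 38. Medians of the pocket protein, ARF, Polycomb, methylthioadenosine and chromosome 4 lists also changed sign when 1 library was left out. The cause was not tested. For Cdkn2a and Cdkn2b no fit within numbers 35 and 36 was possible, since all values are 0, and settings of the fit across genes do not apply to them. The interaction count was 0 with the other pseudocount and scalings, also chosen after seeing the data. Values near 0 FPKM rest on few fragments, and a listed 0 may be a failed estimate.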

Other observations

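The ratio of Ccnd1 to Cdk4, both per length, was 0.287 in metastasis 25 and between 0.679 and 1.41 in the other 9 libraries. Ccnd2, the D-type cyclin not described above, was 1.03, 38.0, 47.1, 10.8 and 22.0 FPKM in metastasis 25, 35, 36, 38 and 72, and 13.4, 25.3, 42.5, 18.8 and 3.09 FPKM in primary 25, 35, 36, 38 and 72. It was lowest in metastasis 25 and primary 72, the libraries with the most Alb (9850 and 436 FPKM). It was highest in the 4 libraries of numbers 35 and 36, as were 24.0% of the genes tested. The part of liver cells in this was not tested. Ccnd3 did not share this, at 44.6, 40.2, 39.0, 65.9 and 57.0 FPKM in the metastasis libraries and 75.1, 41.0, 34.2, 39.7 and 39.1 FPKM in the primary libraries in the same order of numbers. These genes were singled out after their values had been seen.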
